A study of Mus musculus with 9 samples.

Results

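The 9 genes described here act on Notch ligands, on the Notch receptor or on its nuclear output. They are *Mib1*, *Mib2*, *Dlk2*, *Dner*, *Lfng*, *Mfng*, *Rfng*, *Adam10* and *Maml1*, chosen by name for these roles, and all 9 were among the 14670 genes of the deposited expression table. Notch is a receptor through which touching cells signal to each other. In the sending cell, the ubiquitin ligases Mib1 and Mib2 mark ligands of the Delta and Jagged families for endocytosis, and in the receiving cell the ADAM10 protease and then gamma-secretase cut the receptor, whose intracellular part joins RBPJ and a Mastermind coactivator such as Maml1 to switch on *Hes* and *Hey* genes. The fringe enzymes Lfng, Mfng and Rfng extend sugars on the receptor and so tune its response to each ligand, and in the embryonic cortex Notch signalling keeps apical progenitors (radial glia) from differentiating.

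Mouse cortex was dissected at E16.5 (embryonic day 16.5) and its RNA sequenced in 9 libraries, with 3 per genotype. The design asks how the cortical transcriptome differs from control when *Fzd3*, a Frizzled receptor gene, or *Celsr3*, an atypical cadherin gene, is mutated. *Fzd3* mutants are labelled Fzd3 -/- and *Celsr3* mutants Celsr3 -/-, and both lines were kept on a mixed C57Bl/6 and CD1 background. Controls are labelled +/+, whereas the methods describe control mice as littermates that were either heterozygous or wild type. No agent or other allele is named for any group. Libraries keep the numbers of their labels, which run from 1 to 3 except in *Celsr3* mutants (1, 2 and 4). The methods name 3 tissue samples per genotype and, for animal experiments in general, at least 3 animals, without tying libraries to embryos, so *P* values measure the spread between these libraries, which may in part be technical. Levels are in CPM (read counts scaled to library size), and each of the 9 genes was at 7.21 CPM or more in every library. If the smallest step between the values of a library is 1 read, which few low values bear on, the listed genes held between 39857305 and 69600589 reads per library and 3 reads stood for 0.0427 to 0.0752 CPM.

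The genes mutated in each line are given before the others. *Celsr3* RNA was at 195.6, 243 and 214 CPM in controls and at 122, 139 and 118 CPM in *Celsr3* mutants, without overlap, a log2 difference of -0.78 (limma, adjusted *P* = 0.0018). *Fzd3* was at 58, 67.7 and 46.9 CPM in controls and at 46.5, 39.8 and 59.6 CPM in *Fzd3* mutants, and these groups overlapped (log2 difference -0.24, limma, adjusted *P* = 0.24). The deleted part of the *Fzd3* allele is described as exon 3, for mice with conditional deletion, and the CPM of the whole gene can hold reads of the exons that remain, so it does not check the *Fzd3* labels. Which part of *Celsr3* is deleted is not given in the sources used here. The *Fzd3* mutant libraries stood apart from the rest. The root mean square difference in log2(CPM + 0.5) over all genes was 0.41 to 0.50 between control and *Fzd3* mutant libraries, against 0.26 to 0.33 between control and *Celsr3* mutant libraries and 0.24 to 0.28 among controls. In addition, the *Celsr3* mutant 4 library held far more RNA of meningeal collagen genes than any other, as described with the cell markers.

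Of the 9 genes, 6 differed between *Fzd3* mutant and control cortex (66.7%), against 29.8% of all 14670 genes (limma on log2(CPM + 0.5), adjusted *P* under 0.05, the threshold used throughout). *Mib2* and *Dlk2* were higher (2 genes, against 15.0% of all genes called higher), and *Lfng*, *Mfng*, *Maml1* and *Mib1* were lower (4 genes, against 14.8% called lower). The libraries of both genotypes did not overlap in 5 of the 9 genes, against 43.8% of all genes. The median log2 difference of the 9 genes was 0.01 against 0.00 for all genes, and the median size regardless of sign was 0.24 against 0.14. In *Celsr3* mutants 0 of the 9 genes passed the threshold, against 0.307% of all genes (limma), and 2 of the 9 (*Mib2* and *Rfng*) had an unadjusted *P* under 0.05, as had 800 genes of the whole table. A voom-weighted limma fit also called 0 of the 9. Control and *Celsr3* mutant libraries did not overlap in 1 gene, *Mib2*, against 10.4% of all genes. Both comparisons use the same 3 control libraries and are therefore not independent. *P* values were adjusted within each contrast, so a difference of equal size and error can be called in *Fzd3* mutants and not in *Celsr3* mutants. In whole cortex, fewer cells of a type and less RNA per cell cannot be told apart, which holds for every difference below.

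**Figure D1:**
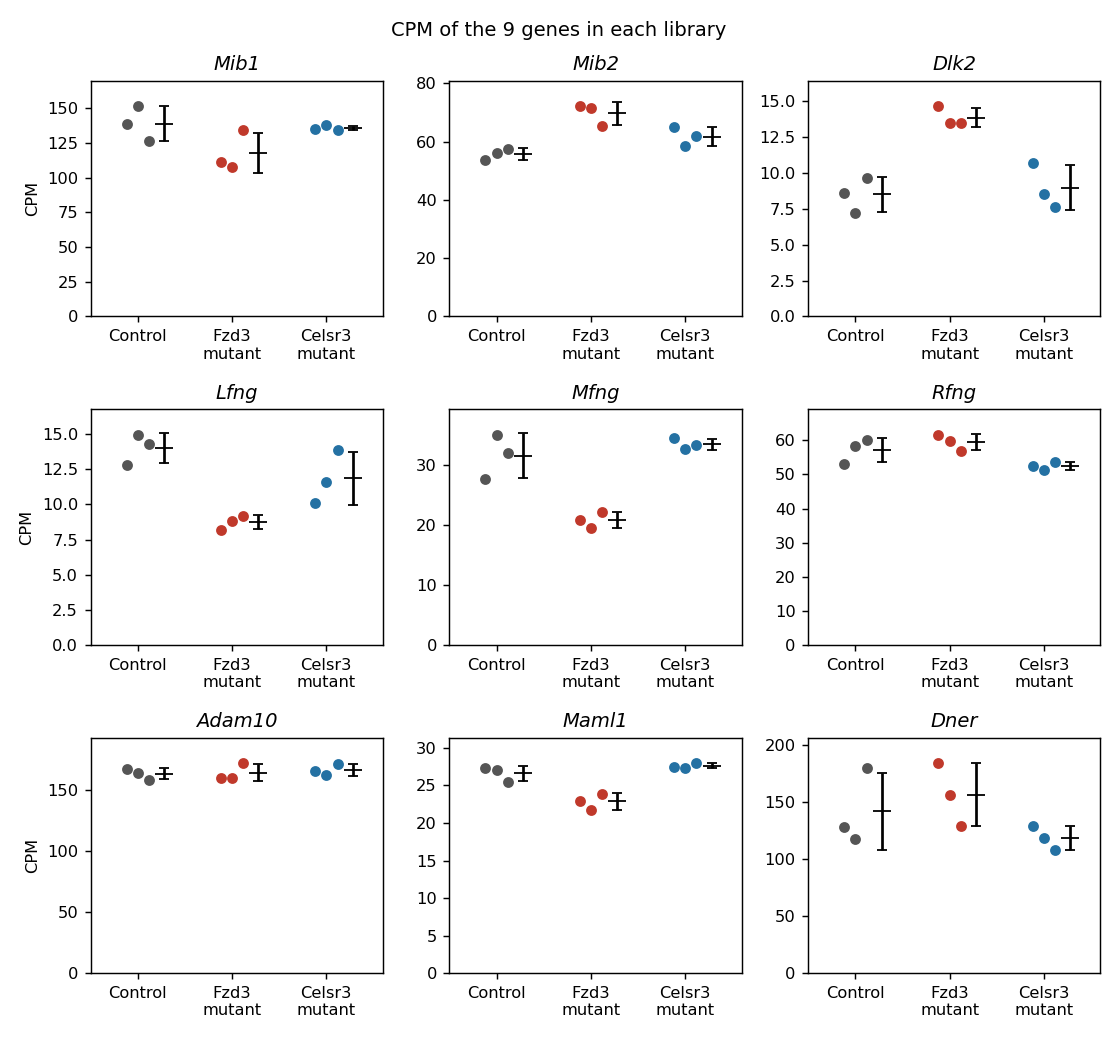
CPM (y axis, from 0) of each of the 9 genes in the 9 libraries, by genotype on the x axis, with each point a library and the bar beside it the mean and s.d. of 3 libraries. *Mfng* and *Lfng* lie lower and *Dlk2* and *Mib2* higher in all 3 *Fzd3* mutant libraries than in all 3 controls, whereas *Adam10* spans 158 to 172 CPM over all libraries.

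Among the genes that act on ligands, *Mib1* encodes the main ubiquitin ligase for Delta and Jagged proteins in the mouse embryo and lies on chromosome 18 (10725548 to 10818704, GRCm38, GENCODE M21). It was at 139, 151 and 126 CPM in controls, at 111, 108 and 134 CPM in *Fzd3* mutants and at 135, 138 and 134 CPM in *Celsr3* mutants. *Fzd3* mutants 1 and 2 were below every control, but *Fzd3* mutant 3 lay within the control range, so the groups overlapped. The log2 difference of -0.24 (s.e. 0.0823) in *Fzd3* mutants passed the threshold narrowly (limma, adjusted *P* = 0.0481), and in *Celsr3* mutants it was -0.03. The *Fzd3* call is fragile. It was lost when any of Control 1 (adjusted *P* = 0.106), Control 2 (0.171), *Fzd3* mutant 1 (0.16), *Fzd3* mutant 2 (0.173) or the *Celsr3* mutants 1 (0.0618), 2 (0.064) and 4 (0.0595) was left out of the limma fit. It was also lost with columns rescaled to equal totals (0.0558), and it held in 8 of 21 alternative fits.

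*Mib2* encodes a related ligase that also ubiquitinates Notch ligands (chromosome 4, 155654677 to 155669198). It was at 53.6, 55.9 and 57.5 CPM in controls, at 72.1, 71.7 and 65.3 CPM in *Fzd3* mutants and at 64.9, 58.5 and 61.9 CPM in *Celsr3* mutants. Each *Fzd3* mutant library was above each library of the other genotypes, and each *Celsr3* mutant library was above each control. The log2 difference from control was 0.32 (s.e. 0.0563) in *Fzd3* mutants (limma, adjusted *P* = 0.00183) and 0.15 (s.e. 0.0563) in *Celsr3* mutants (adjusted *P* = 0.789). The ratio of *Mib2* to *Mib1*, each as CPM per kilobase of exon, compares both ligases within a library. A higher *Mib2* level alone raises this ratio, which therefore does not show that *Mib1* was lower. The controls had ratios of 0.896, 0.856 and 1.06, the *Fzd3* mutants 1.5, 1.54 and 1.13, and the *Celsr3* mutants 1.11, 0.984 and 1.07. All 3 *Fzd3* mutant ratios were above every other library, the lowest of them closely. The size of the ratio, and so whether it lies above 1, depends on the exon lengths used, but its order among libraries does not.

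*Dlk2* and *Dner* encode membrane proteins with EGF repeats that lack the DSL domain of canonical ligands. Dlk2 is a homologue of Dlk1 and is held to dampen Notch signalling, and Dner is a neuronal protein described as a Notch ligand. *Dlk2* (chromosome 17, 46297421 to 46303271) was at 8.61, 7.21 and 9.63 CPM in controls, at 14.6, 13.5 and 13.4 CPM in *Fzd3* mutants and at 10.7, 8.53 and 7.62 CPM in *Celsr3* mutants. Every *Fzd3* mutant library was above every other library, and *Celsr3* mutants overlapped controls. The difference of 0.68 (s.e. 0.13) in *Fzd3* mutants was the largest of the 9 in size (limma, adjusted *P* = 0.00288), equal to a ratio of 1.6 on the same scale, and it was 0.07 in *Celsr3* mutants. Exons of *Dlk2* share 51 bases (2.41% of its exon length) with *Abcc10* on the opposite strand, and whether reads were counted by strand is not stated. *Abcc10* was at 9.84 ± 0.11 CPM in controls (s.d., n = 3) and 11 ± 1.14 CPM in *Fzd3* mutants, with a log2 difference of 0.15 (limma, adjusted *P* = 0.22).

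*Dner* (chromosome 1, 84369839 to 84696221) varied widely within genotypes. It was at 128, 118 and 179.7 CPM in controls, at 184, 156 and 129 CPM in *Fzd3* mutants and at 129, 119 and 108 CPM in *Celsr3* mutants. Control 3 was close to the highest *Fzd3* mutant, and both mutants overlapped the controls. The log2 difference was 0.15 (95% interval -0.18 to 0.49) in *Fzd3* mutants (limma, adjusted *P* = 0.492) and -0.24 (-0.57 to 0.10) in *Celsr3* mutants (adjusted *P* = 0.995). Leaving out 1 library moved the *Fzd3* difference between 0.028 (without *Fzd3* mutant 1) and 0.34 (without Control 3, limma, adjusted *P* = 0.0663), and the *Celsr3* difference between -0.36 (without Control 2) and -0.055 (without Control 3). In the fit of all libraries the intervals leave room for differences of the size called in *Mib1*, *Mib2* and *Maml1*, but not in *Dlk2*, *Lfng* or *Mfng*. Exons of *Dner* share 77 bases (1.61%) with the microRNA gene *Mir5126* on the opposite strand.

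The 3 fringe genes encode glycosyltransferases that add N-acetylglucosamine to O-linked fucose on Notch, and they did not move together. *Lfng* (chromosome 5, 140607320 to 140615545), which progenitors of the cortex express, was at 12.8, 15 and 14.3 CPM in controls, at 8.2, 8.85 and 9.18 CPM in *Fzd3* mutants and at 10.1, 11.6 and 13.8 CPM in *Celsr3* mutants. All *Fzd3* mutant libraries were below all others, and *Celsr3* mutants 1 and 2 were below every control while *Celsr3* mutant 4 was not. The log2 difference was -0.65 (s.e. 0.112) in *Fzd3* mutants (limma, adjusted *P* = 0.0016), a ratio of 0.638 on that scale, and -0.24 (95% interval -0.49 to 0.01) in *Celsr3* mutants (adjusted *P* = 0.936). Leaving out 1 library moved the *Lfng* difference in *Celsr3* mutants between -0.35 and -0.14. *Mfng* (chromosome 15, 78755882 to 78773475) was at 27.6, 35 and 32 CPM in controls, at 20.7, 19.5 and 22.2 CPM in *Fzd3* mutants and at 34.5, 32.7 and 33.3 CPM in *Celsr3* mutants. Here too the *Fzd3* mutants were below all other libraries, while *Celsr3* mutants lay within the control range. The log2 difference was -0.58 (s.e. 0.0838) in *Fzd3* mutants (limma, adjusted *P* = 0.000559) and 0.09 in *Celsr3* mutants. With 1 library left out, the *Mfng* difference in *Celsr3* mutants lay between 2.6e-05 and 0.17.

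*Rfng* (chromosome 11, 120780746 to 120784207) was at 53.1, 58.4 and 60 CPM in controls, at 61.6, 59.8 and 56.9 CPM in *Fzd3* mutants and at 52.5, 51.4 and 53.5 CPM in *Celsr3* mutants. *Fzd3* mutants overlapped controls, and *Celsr3* mutants reached up to the lowest control. The log2 difference was 0.06 (95% interval -0.06 to 0.18) in *Fzd3* mutants (limma, adjusted *P* = 0.477), an interval that does not reach the size of the *Lfng* or *Mfng* difference, and -0.12 in *Celsr3* mutants (adjusted *P* = 0.914). As CPM per kilobase of exon, *Lfng* and *Mfng* together made up 41%, 43.8% and 41.3% of the summed level of the 3 fringe genes in controls. Their share was 29.9%, 30.2% and 33.5% in the *Fzd3* mutant libraries, compared with 43.4%, 43.9% and 44.5% in the *Celsr3* mutant libraries. The share was thus lower in every *Fzd3* mutant than in any other library, while *Rfng* remained the most abundant of the 3 per kilobase in all 9 libraries.

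**Figure D2:**
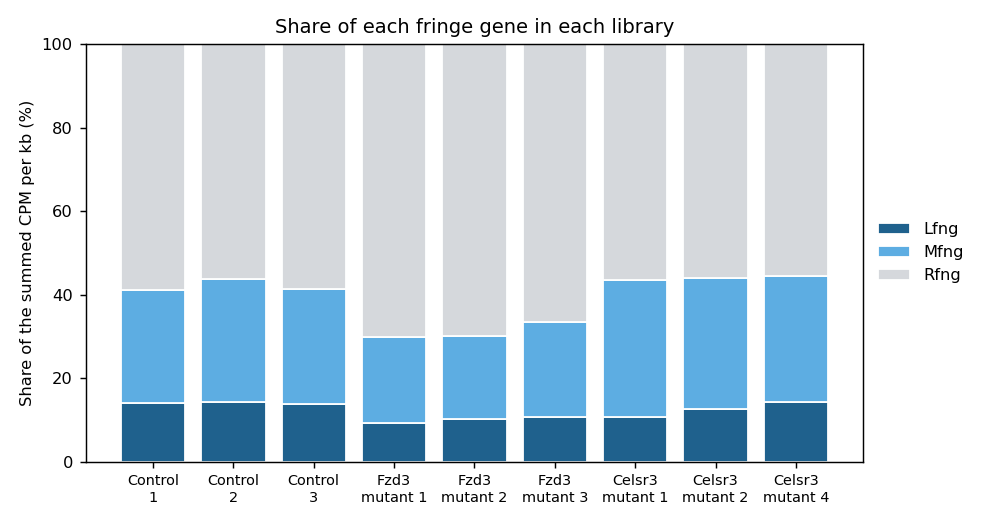
Share of each fringe gene (percent, y axis) in the summed CPM per kilobase of *Lfng*, *Mfng* and *Rfng* in each of the 9 libraries (x axis). *Rfng* takes 66.5% to 70.1% in *Fzd3* mutants, 56.2% to 59% in controls and 55.5% to 56.6% in *Celsr3* mutants.

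The sequences before the start sites are shown for *Lfng*, *Rfng* and *Mib2*, which were lower, not called and higher in *Fzd3* mutants, respectively, beside the Notch target *Hes5*, which was added after its values were seen. Of the 9 genes 7 matched the RefSeq table (GRCm38.p6), not *Mfng* and *Mib1*. The 250 bases upstream of each start were searched for TGGGAA, the core of the RBPJ motif, and for TTCCCA, its reverse complement, and matches are in capitals. *Lfng* (chr5:140607091-140607340, plus strand, reaching past the GENCODE start of the gene) holds both, 135 and 108 bases before the RefSeq start. *Hes5* (chr4:154960673-154960922, plus strand) also holds both, 226 and 82 bases before the start. *Rfng* (chr11:120784205-120784454, minus strand) and *Mib2* (chr4:155669220-155669469, minus strand) hold neither, and neither do the windows of *Adam10*, *Maml1*, *Dner* and *Dlk2*. Of 32851 windows of the same length in the RefSeq table, 21.6% hold at least 1 of these runs of letters and 1.28% hold both. A match describes letters only, and no binding was measured here.
Lfng: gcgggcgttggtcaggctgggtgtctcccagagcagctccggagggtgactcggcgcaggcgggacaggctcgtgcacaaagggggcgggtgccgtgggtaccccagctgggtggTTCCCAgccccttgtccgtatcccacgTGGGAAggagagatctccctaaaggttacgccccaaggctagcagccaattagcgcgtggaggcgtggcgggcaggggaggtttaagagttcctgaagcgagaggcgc
Rfng: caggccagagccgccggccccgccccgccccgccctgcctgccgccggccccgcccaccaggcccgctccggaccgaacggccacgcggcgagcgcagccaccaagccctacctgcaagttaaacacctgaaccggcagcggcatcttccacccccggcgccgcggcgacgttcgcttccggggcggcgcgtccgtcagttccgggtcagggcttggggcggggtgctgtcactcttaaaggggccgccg
Mib2: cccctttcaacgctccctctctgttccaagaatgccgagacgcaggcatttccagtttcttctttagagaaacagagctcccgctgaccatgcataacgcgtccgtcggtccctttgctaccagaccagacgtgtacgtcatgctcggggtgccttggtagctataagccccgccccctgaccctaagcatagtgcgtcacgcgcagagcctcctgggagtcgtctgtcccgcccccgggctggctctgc
Hes5: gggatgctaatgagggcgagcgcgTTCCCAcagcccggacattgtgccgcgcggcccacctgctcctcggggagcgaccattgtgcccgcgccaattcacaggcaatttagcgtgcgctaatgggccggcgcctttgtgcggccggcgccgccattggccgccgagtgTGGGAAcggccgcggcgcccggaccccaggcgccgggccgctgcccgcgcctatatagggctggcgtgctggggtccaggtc

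*Adam10* encodes the protease that makes the cut outside the membrane after ligand binding (chromosome 9, 70678997 to 70780229). It was at 167, 164 and 158 CPM in controls, at 159.9, 159.4 and 172 CPM in *Fzd3* mutants and at 165, 162 and 171 CPM in *Celsr3* mutants. All 3 genotypes overlapped, and the range over 9 libraries was the narrowest of the 9 genes relative to its level. The log2 difference was 0.01 (95% interval -0.09 to 0.10) in *Fzd3* mutants (limma, adjusted *P* = 0.938) and 0.03 (-0.07 to 0.12) in *Celsr3* mutants. Differences smaller than these bounds cannot be seen at the spread of these libraries.

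*Maml1* encodes a Mastermind coactivator of the Notch and RBPJ complex (chromosome 11, 50255634 to 50292311). It was at 27.4, 27 and 25.5 CPM in controls, at 23, 21.7 and 23.9 CPM in *Fzd3* mutants and at 27.5, 27.3 and 28 CPM in *Celsr3* mutants. All *Fzd3* mutants were below all other libraries, and *Celsr3* mutants overlapped controls at their upper end. The log2 difference was -0.21 (s.e. 0.0589) in *Fzd3* mutants (limma, adjusted *P* = 0.0187) and 0.05 in *Celsr3* mutants. This call was lost without Control 1 (adjusted *P* = 0.0643), Control 2 (0.0599) or *Fzd3* mutant 2 (0.075) in the limma fit. Exons of *Maml1* share 135 bases (2.44% of its exon length) with *Gm26542* on the opposite strand, which was not analysed here. The related *Maml2* and *Maml3* had log2 differences of 0.05 and -0.23 in *Fzd3* mutants (adjusted *P* = 0.71 and 0.103).

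**Figure D3:**
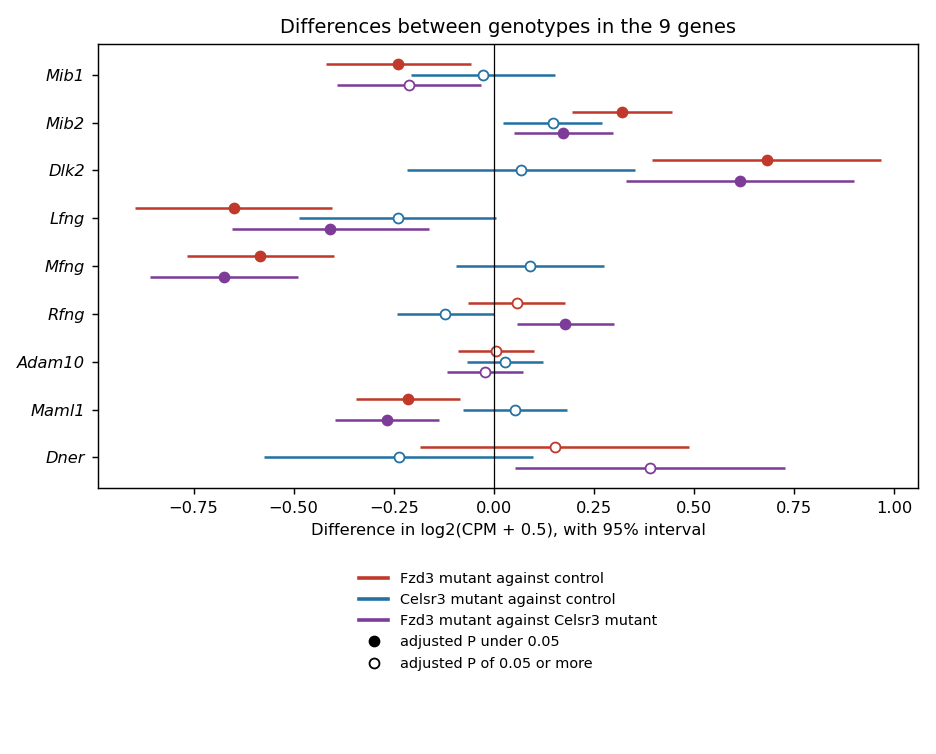
Differences in log2(CPM + 0.5) between genotypes (x axis) for the 9 genes (y axis), with 95% intervals from limma as lines and filled points where the adjusted *P* is under 0.05. In red and blue are the mutants against the same controls, and in purple the *Fzd3* against the *Celsr3* mutants, where *Mfng* (-0.67) and *Dlk2* (0.61) lie farthest from 0.

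Whether the mutants differ from each other was tested by a direct contrast between them. Of the 9 genes 6 differed between *Fzd3* and *Celsr3* mutants, against 29.6% of all genes. *Mib2*, *Rfng* and *Dlk2* were higher in *Fzd3* mutants (3 genes, against 15.3% of all genes called higher), and *Lfng*, *Mfng* and *Maml1* were lower (3 genes, against 14.3% called lower). Libraries did not overlap in 8 of the 9 genes, all but *Adam10*, against 44.9% of all genes. The gap was very narrow for *Mib1* (134.30 CPM in *Fzd3* mutant 3, 134.39 CPM in *Celsr3* mutant 4). It was also narrow for *Dner* (128.88 CPM in *Fzd3* mutant 3, 128.64 CPM in *Celsr3* mutant 1). The differences were -0.67 (s.e. 0.0838) for *Mfng* (limma, adjusted *P* = 0.000275), 0.61 (s.e. 0.13) for *Dlk2* (adjusted *P* = 0.00517) and -0.27 (s.e. 0.0589) for *Maml1* (adjusted *P* = 0.00639). They were smaller relative to their error for *Lfng* (-0.41, adjusted *P* = 0.0183), *Rfng* (0.18, 0.0315) and *Mib2* (0.17, 0.039), and *Mib1* (-0.21, 0.0742) and *Dner* (0.39, 0.0769) did not pass limma's threshold. The count of 6 fell to 3 without *Fzd3* mutant 1 or without *Celsr3* mutant 4, and rose to 8 without *Fzd3* mutant 3, where *Mib1* (adjusted *P* = 0.00652) and *Dner* (0.0268) passed. *Lfng* was lost without *Fzd3* mutant 1 (0.07) or *Celsr3* mutant 4 (0.0703), *Mib2* without *Fzd3* mutant 1 (0.132), *Fzd3* mutant 2 (0.124), *Celsr3* mutant 2 (0.146) or *Celsr3* mutant 4 (0.087), and *Rfng* without any of *Fzd3* mutants 1 and 2 or *Celsr3* mutants 1, 2 and 4 (0.057 to 0.113).

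The order of the levels was read as CPM per kilobase of the union of exons. In controls it was *Adam10* (33.2), *Dner* (29.6), *Rfng* (23), *Mib1* (12.7), *Mib2* (11.8), *Mfng* (11.1), *Lfng* (5.59), *Maml1* (4.81) and *Dlk2* (4.02), where the median of 13773 genes with a length was 6.05 CPM per kilobase. The ranges of *Adam10* and *Dner*, of *Mib1* and *Mib2*, and of *Mib2* and *Mfng* overlapped over the 3 controls, so these neighbours do not differ beyond their spread. In *Fzd3* mutants *Lfng* (3.49) was the lowest of the 9, below *Maml1* (4.14), and *Dlk2* (6.54) stood 7th next to *Mfng* (7.33), with which it overlapped. *Mib2* (14.8) was above *Mib1* (10.8) there, without overlap. In *Celsr3* mutants the levels of *Mib2* (13.1) and *Mib1* (12.4) overlapped, as did those of *Lfng* (4.73) with its neighbours *Maml1* (4.99) and *Dlk2* (4.23).

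For each of the 9 genes, the 2 genes with the closest pattern were found by the root mean square difference of log2(CPM + 0.5), centred on each gene's mean, over the 9 libraries. The closest to *Mib1* were *Casp8ap2* (0.04) and *Cdk12* (0.04), and to *Mib2* they were *Smyd3* (0.04) and *Slc22a17* (0.05). *Lfng* was matched by *Gm4737* (0.08) and *Iqgap2* (0.08), *Mfng* by *Gm6433* (0.06) and *Gareml* (0.08), and *Rfng* by *Krba1* (0.03) and *Ppp1r10* (0.04). *Adam10* was matched by *Ibtk* (0.02) and *Alkbh8* (0.02), and *Maml1* by *Sec61b* (0.02) and *Rcbtb1* (0.03). The s.d. of the gene itself over the 9 libraries was 0.04 for *Adam10*, 0.13 for *Maml1* and 0.31 for *Lfng*. A small distance is therefore a closer match in a gene that varies more. *Dner* was closest to *Negr1* (0.06) and *Btbd3* (0.07), which were likewise high in Control 3 (83.7 and 40.7 CPM) compared with the other controls (up to 58.5 and 30.9 CPM). *Dlk2* was closest to *Ppp2r2c* (0.06) and *Sh3d19* (0.06), higher in *Fzd3* mutants by 0.65 and 0.61 on the log2 scale. None of the 9 genes was among the closest 2 of another.

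Other genes of the pathway were read from 10 lists, in which 83 of 88 genes were in the table and *Kdelc1*, *Gxylt2*, *Epn3*, *Numbl* and *Mfap5* were not analysed here. In *Fzd3* mutants 15 were higher, 18 lower and 50 not called, or 39.8% called against 29.8% of all genes (limma). This count fell to 20 without *Fzd3* mutant 1 and to 21 without *Fzd3* mutant 2. With 1 library left out, the count of all called genes fell too, from 4366 to between 2960 and 4314. In *Celsr3* mutants 0 of the 83 were called by limma. Of the 33 genes called in *Fzd3* mutants 17 passed in every alternative fit that tested them (21, or 20 for *Cntn6*), and the others were lost in 1 to 12. Those lost most often were *Psen2*, *Aak1* and *Snw1* (12 fits each), *Dtx3* (10), *Egfl7* (9), *Gxylt1* and *Slc35c1* (7 each) and *Nov* (6).

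Some canonical ligands and receptors were lower in *Fzd3* mutants, to be read beside the 14.8% of all genes called lower. Of 5 ligands *Dll1* (log2 difference -0.54, limma, adjusted *P* = 0.000467), *Dll3* (-0.58, 0.00871) and *Jag1* (-0.42, 0.00281) were lower, while *Jag2* (0.29, 0.0515) and *Dll4* (0.29, 0.179) did not pass. Of 4 receptors *Notch1* (-0.57, limma, adjusted *P* = 0.00288) and *Notch2* (-0.44, 0.00719) were lower, and *Notch3* (-0.33, 0.0801) and *Notch4* (0.43, 0.0515) did not pass. The receptor genes thus lay on the same side of 0 as *Lfng* and *Mfng*, apart from *Notch4*. In *Celsr3* mutants *Jag1* had a difference of -0.43 (limma, adjusted *P* = 0.0613), and every other ligand and receptor had an adjusted *P* of at least 0.97. The *Jag1* difference was thus of like size in both mutants, though called only in *Fzd3* mutants. The direct contrast of *Fzd3* with *Celsr3* mutants gave 0.01 for *Jag1* (limma, adjusted *P* = 0.944).

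In 4 lists of genes that share a step with the 9, 9 of 35 genes were called in *Fzd3* mutants (25.7%, limma), near the 29.8% of all genes. Among 9 other genes of ligand ubiquitination and endocytosis only *Dnm1*, encoding a neuronal dynamin, was called in *Fzd3* mutants (0.39, limma, adjusted *P* = 0.00195). The neuralized ligases *Neurl1a* and *Neurl1b*, which act on ligands as Mib1 does, had differences of 0.12 and 0.15 and did not pass. Of 9 genes of receptor O-glycosylation, *Eogt* (0.57, limma, adjusted *P* = 0.00331) and *Slc35c1* (0.30, 0.0373), a GDP-fucose transporter gene, were higher, and *Gxylt1* (-0.32, 0.0376) and *Poglut1* (-0.15, 0.019) were lower. *Pofut1*, whose product adds the fucose that fringe enzymes extend, had a difference of -0.13 (limma, adjusted *P* = 0.261). Of 10 genes for furin, another ADAM protease and their regulators, the inhibitor gene *Timp3* (0.64, limma, adjusted *P* = 0.0211) and *Gdpd5* (0.20, 0.0243) were higher, and *Tspan14* (-0.20, 0.00803), a tetraspanin that escorts ADAM10 to the cell surface, was lower. *Adam17*, the only ADAM protease gene in this list, had a difference of 0.02. Of 7 gamma-secretase genes *Psen2* alone was called (0.28, limma, adjusted *P* = 0.0489).

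In the list for receptor trafficking and turnover the largest called difference was that of *Dtx4*, which encodes a Deltex ubiquitin ligase acting on Notch. It was at 42.9, 38.05 and 46.1 CPM in controls, at 124.5, 114 and 109.7 CPM in *Fzd3* mutants and at 55.5, 48 and 43.9 CPM in *Celsr3* mutants. Every *Fzd3* mutant was above every other library, and the log2 difference was 1.45 (s.e. 0.0905, limma, adjusted *P* = 1.93e-06), against 0.21 in *Celsr3* mutants (adjusted *P* = 0.892). Of the 10 genes in this list 4 were higher, against 15.0% of all genes called higher, and 1 was lower, against 14.8% called lower. Besides *Dtx4*, the higher ones were *Fbxw7* (0.31), *Dtx3* (0.17) and *Aak1* (0.13), and the lower one was *Nedd4* (-0.19). Of 13 nuclear genes 4 were lower and 0 higher, against 14.8% of all genes called lower and 29.8% called in either direction, among them *Rbpj* (-0.37, limma, adjusted *P* = 0.00102), *Hdac1* (-0.30, 0.0025) and *Snw1* (-0.13, 0.0428).

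Of 7 other non-canonical ligand genes 5 were higher in *Fzd3* mutants, against 15.0% of all genes called higher, and *Mfap2* was lower (-0.30, limma, adjusted *P* = 0.00327). The higher ones were *Cntn6* (1.55, adjusted *P* = 0.000881), *Cntn1* (0.71, 0.00306), *Nov* (1.01, 0.0274), *Dlk1* (0.81, 0.03) and *Egfl7* (0.18, 0.0397). *Cntn1* and *Cntn6* encode contactins, adhesion molecules of neurons. *Dlk1* was low throughout, at 0.611 ± 0.212 CPM in controls (s.d., n = 3). Of 9 target genes 4 were lower and 0 higher, against 14.8% of all genes called lower, namely *Hey1* (-0.72, limma, adjusted *P* = 0.000321), *Hes5* (-0.66, 0.00227), *Hes1* (-0.56, 0.0132) and *Nrarp* (-0.43, 0.00662), whose protein limits Notch signalling.

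**Figure D4:**
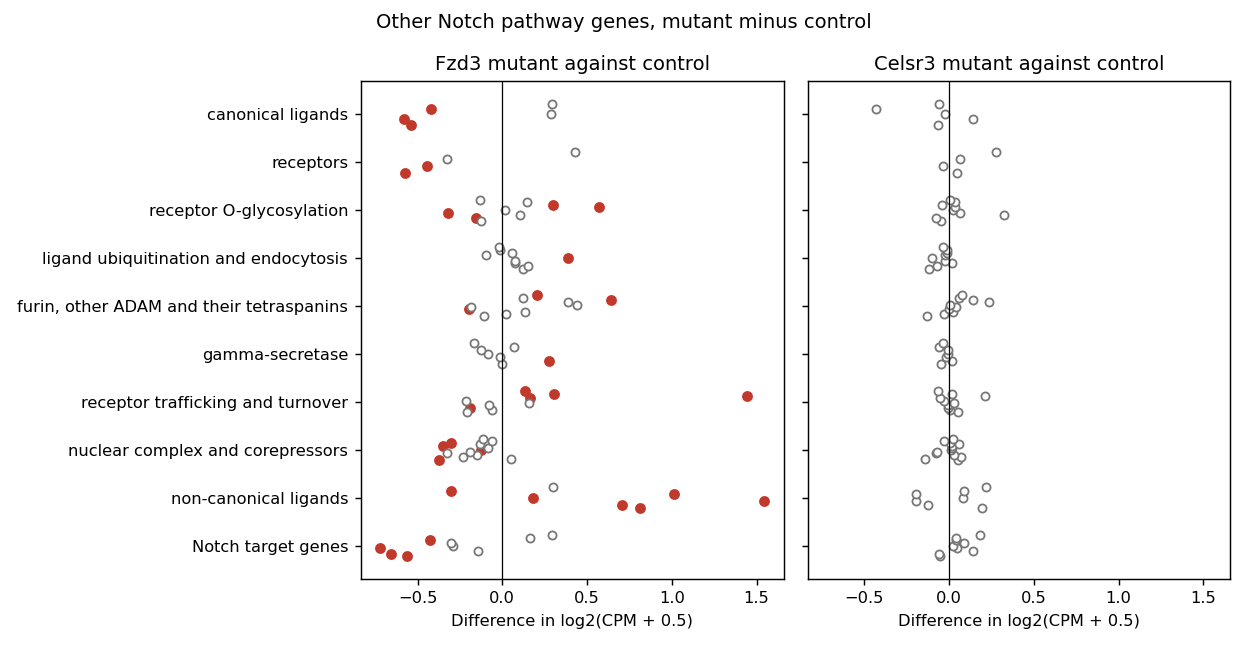
Differences in log2(CPM + 0.5) from control (x axes) of 83 other pathway genes in 10 lists (y axis), in *Fzd3* mutants on the left and *Celsr3* mutants on the right, with red points where limma's adjusted *P* is under 0.05 and open points otherwise. In *Fzd3* mutants 15 genes are called higher and 18 lower, with *Cntn6* (1.55) and *Dtx4* (1.45) farthest to the right, and in *Celsr3* mutants 0 are called.

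Several lists of cell type markers held genes called in *Fzd3* mutants, to be read beside the 14.8% of all genes called lower and 15.0% called higher (limma), and their part in the differences above was not tested. Of 11 apical progenitor markers 8 were lower in *Fzd3* mutants and 0 higher (limma). Their summed level, led by *Vim*, was 1599, 1669 and 1614 CPM in controls, 1241, 1298 and 1179.7 CPM in *Fzd3* mutants and 1466, 1512 and 1607 CPM in *Celsr3* mutants. That list also holds *Hes1* and *Hes5*, which count as Notch targets above. Of 7 intermediate progenitor markers 7 were lower, and the sum, led by *Eomes*, was 419, 444 and 368 CPM in controls, 235, 256 and 292 CPM in *Fzd3* mutants and 405, 462 and 470.5 CPM in *Celsr3* mutants. All *Fzd3* mutant sums of both lists were below all others, as for *Lfng*, *Mfng* and *Maml1*. Of 6 genes of forebrain and cortex identity, led by *Neurod6*, 5 were lower, with a mean sum of 85.6% of control. Of 11 excitatory neuron markers, led by *Map2*, 7 were lower and 1 higher, with a sum of 97.1% of control. *Neurod6* is in this list too, so both lists share it.

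Some markers of oligodendrocyte precursors, vessels and microglia were higher in *Fzd3* mutants, as were *Dlk2* and *Mib2*, while most of the vessel and microglia markers were not called. Of 5 oligodendrocyte precursor markers 3 were higher, with sums led by *Pdgfra* of 29.4, 27.6 and 39.1 CPM in controls, 71.2, 62.6 and 38.05 CPM in *Fzd3* mutants and 36.9, 26.9 and 32.2 CPM in *Celsr3* mutants. *Fzd3* mutant 3 lay within the control range for this list, and of the *Fzd3* mutants it had the lowest *Mib2* level (65.3 CPM, against 72.1 and 71.7 CPM). Its *Dlk2* level of 13.4 CPM was close to that of *Fzd3* mutant 2 (13.5 CPM), with 14.6 CPM in *Fzd3* mutant 1. Of 10 endothelial and pericyte markers 3 were higher and 7 not called, with sums led by *Rgs5* of 156, 156 and 158 CPM in controls, 217, 211 and 191 CPM in *Fzd3* mutants and 171, 151 and 214 CPM in *Celsr3* mutants. Of 7 microglia markers 2 were higher and 5 not called, with sums led by *Csf1r* of 34, 38.4 and 37 CPM in controls, 57.2, 53.8 and 41.6 CPM in *Fzd3* mutants and 38, 40.1 and 57 CPM in *Celsr3* mutants. *Celsr3* mutant 4 had the highest vessel and microglia sums of its genotype, but its *Dlk2* level (7.62 CPM) was below those of *Celsr3* mutants 1 and 2 (10.7 and 8.53 CPM). Its *Mib2* level was 61.9 CPM, against 64.9 and 58.5 CPM. The part of these markers in the differences of *Dlk2* and *Mib2* was not tested.

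Of 9 interneuron markers 1 was lower in *Fzd3* mutants, of 3 astrocyte markers 2 were higher and 1 lower, of 5 Cajal-Retzius markers 0 were called, of 7 red blood cell markers 1 was lower and of 2 thalamus and hindbrain markers 2 were lower, with a sum at 62.3% of control. The 6 choroid plexus markers were not analysed here. Also not analysed were 6 of 8 thalamus and hindbrain, 3 of 6 astrocyte and 3 of 12 interneuron markers. The thalamus and hindbrain sum had a control mean of only 6.84 CPM. Of 6 meningeal markers 1 was higher, *Pdgfra*, which the oligodendrocyte list also holds. Their sums were 27.5, 28 and 29.5 CPM in controls, 53.6, 48.9 and 31.8 CPM in *Fzd3* mutants and 34.5, 28.3 and 194.6 CPM in *Celsr3* mutants. In the high library, *Celsr3* mutant 4, *Col3a1* was at 87.6 CPM and *Col1a2* at 49.4 CPM, against at most 6.86 and 3.78 CPM elsewhere. In *Celsr3* mutants 0 markers of any list were called (limma). Without *Celsr3* mutant 4 the count of the 9 genes called in *Celsr3* mutants was also 0.

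**Figure D5:**
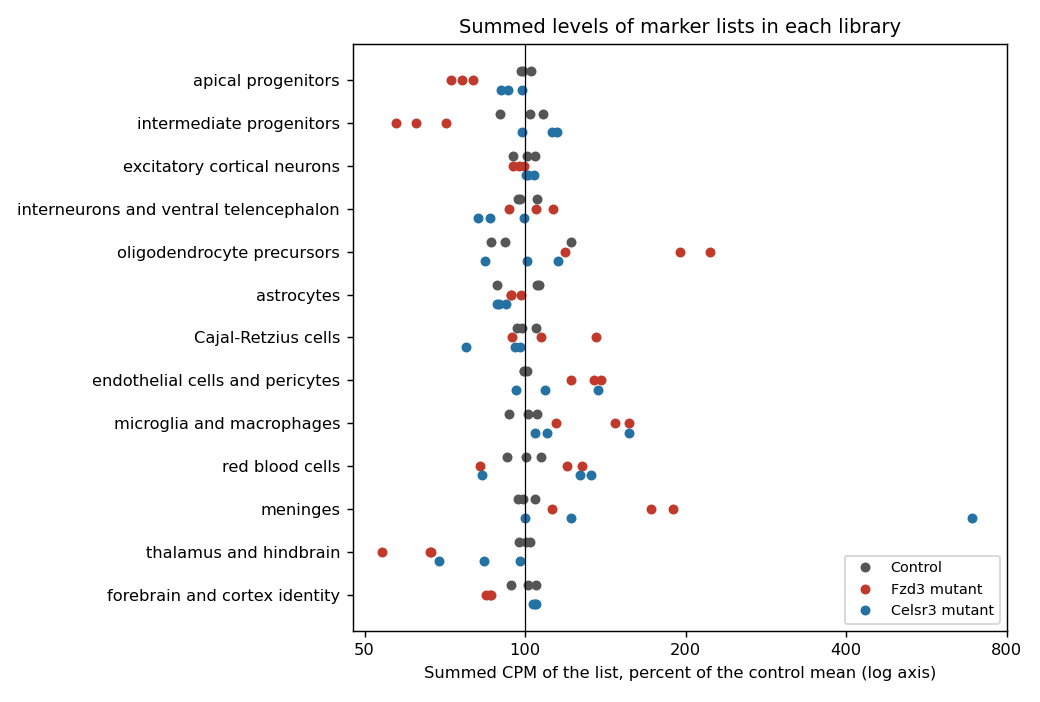
Summed CPM of 13 marker lists (y axis) in each library as a percentage of the control mean (x axis, log scale), with each point a library coloured by genotype. Intermediate progenitor sums in *Fzd3* mutants average 63.6% of control and oligodendrocyte precursor sums 179%, and a *Celsr3* mutant library stands out for meninges at 194.6 CPM against a control mean of 28.3 CPM.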

How the data were processed

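RNA-seq of E16.5 cortex was analysed in 9 libraries, grouped by the genotype in the sample labels, with 3 each of control, *Fzd3* mutant and *Celsr3* mutant. The authors deposited CPM values for 14670 genes, made by a sequencing company from counts scaled to library size. The submitters' processing notes name FastQC, TopHat, TopHat2, Bowtie, Cufflinks 2.1.1 and edgeR 2.12 and the builds GRCm38 and GRCh37, without roles. The annotation and the use of strand are not given in the sources used here. Column totals of 990141 to 1012199 CPM show that libraries were also scaled by a factor of their own. The smallest step of a column was taken as the CPM worth of 1 read and gave its depth. Values were whole multiples of this step within 0.1 of it, but it rests on few low values, and that it stands for 1 read was not established. The number of columns not used was 0.

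All 9 libraries entered a limma 3.58.1 fit with a trend (R 4.3.3) on log2(CPM + 0.5), with Benjamini-Hochberg adjustment over all 14670 genes and a threshold of 0.05. A pseudocount of 0.5 CPM understates differences of low genes. The fit was tested on simulated data. Python 3.11.15 (pandas 2.3.3, numpy 2.4.6 and matplotlib 3.10.9) was used for tables and plots. Positions and exon lengths come from GENCODE M21 (GRCm38), which need not be the annotation the authors used, and upstream sequences from RefSeq.

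All 9 genes were named, and in each pathway list the called genes (up to 6, otherwise the 4 with the smallest adjusted *P*) and any canonical ligand or receptor. Genes that were not called and are named outside this rule, single marker genes and the *Dtx4* values per library were chosen after values were seen. Values of 1 gene in the lists are not reported here. The genes and lists were chosen with earlier results of these data known. Alternatives covered the pseudocount, a filter on low values, scaling, a replicate block, which genotypes were fitted, the variance model, leaving out each library and, added after the data were seen, voom weights on reads obtained from these steps.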

Additional observations from a re-analysis of the deposited data

Results flagged for a closer look

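The *Fzd3* and *Celsr3* mutants differed from each other, in the direct limma test of the difference, in 6 of the 9 genes, against 29.6% of all 14670 genes. On the log2 scale, *Fzd3* minus *Celsr3* mutant, the value was -0.67 for *Mfng*, -0.41 for *Lfng*, -0.27 for *Maml1*, 0.61 for *Dlk2*, 0.18 for *Rfng* and 0.17 for *Mib2*. For *Rfng* neither mutant differed from control past the threshold, with values of 0.06 in *Fzd3* and -0.12 in *Celsr3* mutants, and libraries of both mutants overlapped the controls. Leaving out 1 library moved these values between 0.0046 and 0.092 and between -0.17 and -0.086.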

How the results depend on the processing

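In 21 alternative fits of *Fzd3* mutant against control, *Mib2*, *Lfng*, *Mfng* and *Dlk2* passed the threshold in 21, *Maml1* in 17 and *Mib1* in 8 (adjusted *P* 0.00414 to 0.173), and *Rfng*, *Adam10* and *Dner* in 0. Of the direct comparison of mutants, *Mfng* and *Dlk2* passed in 21, *Maml1* in 20, *Lfng* in 17, *Mib2* in 14, *Rfng* in 13, *Dner* in 3 and *Mib1* in 1. Against control, 0 of the 9 genes passed in *Celsr3* mutants in any of the 21. With each library left out in turn, all called genes numbered 2960 to 4314 in *Fzd3* mutants, 39 to 53 in *Celsr3* mutants and 2973 to 4471 between mutants, and the called genes among the 9 numbered 4 to 6, 0 to 0 and 3 to 8. Signs turned only in small differences, for *Adam10* in *Fzd3* mutants (-0.029 to 0.024) and for *Mib1* (-0.093 to 0.038) and *Dlk2* (-0.061 to 0.17) in *Celsr3* mutants, and fewer samples are the only change in those fits. With a block for the library number, 29 genes were called in *Celsr3* mutants in place of 45 and 2101 between mutants in place of 4346. Between mutants 2 of the 9 genes then passed in place of 6, and in *Fzd3* mutants *Mib1* (limma, adjusted *P* = 0.0983) and *Maml1* (0.0575) did not pass. No other library shares the number of *Celsr3* mutant 4, so the block fits that library exactly and takes it out of the contrasts. Equal numbers do not pair the libraries throughout, since those of equal number correlated, across genes in their deviations from the group means, at -0.07, -0.15 and -0.20 for control and *Fzd3* mutant, 0.073 and -0.013 for control and *Celsr3* mutant, and 0.19 and -0.080 between mutants. Ordinary variances for each gene called 24 genes in *Celsr3* mutants and 3 of the 9 between mutants, and the cause was not tested. Scaling the columns to equal totals gave 2378 higher and 1914 lower genes in *Fzd3* mutants in place of 2199 and 2167. Per kilobase of the longest transcript, *Dner* ranked above *Adam10* in controls, and *Mfng* (16.9) and *Mib2* (15.3) above *Mib1* (13.5). Tests for counts on reads were not run. Counting error is part of the spread of the 9 genes, the lowest of which was at 7.21 CPM.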
